A study of Homo sapiens with 3 samples.

Results

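FPGS and GGH are the 2 genes whose products set the length of the glutamate tail on folates and on many antifolate drugs. They were chosen by name: every guide RNA assigned to either gene was taken from the 3 deposited tables. They are 2 of the 20449 named genes, with 3 guides each, or 6 of 62916 guides. The guides came from a GeCKO library, a pool in which each cell carries a guide that directs the nuclease Cas9 to a chosen gene. The pool was grown in NUGC3, an established gastric cancer line, and guides were counted in genomic DNA. A guide's share of the reads reflects the share of cells carrying it, not their number. The screen had 3 libraries. They were labelled DMSO day 0, DMSO day 14 and RTX day 14, and the last received 10 nM RTX. All 3 carried the same knockout pool. A treatment note assigns 14 days of DMSO to the day 0 group, and the sample titles were followed instead. RTX is not spelled out in the labels, and the series title is about antifolates.

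Folates enter cells as monoglutamates. FPGS, folylpolyglutamate synthetase, adds further glutamates in the cytosol and in mitochondria, which holds folates inside the cell and makes them better substrates. Several antifolates are handled in the same way, and loss of FPGS is a known route of resistance to those that need the tail. GGH, gamma-glutamyl hydrolase, works mainly in the lysosome and takes the glutamates off again, so that the drug or vitamin can leave. The 2 enzymes therefore act in opposite directions on the same molecule.

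The libraries held 16547572 reads at day 0, 18805737 in DMSO at day 14 and 17344507 in RTX at day 14, with a median of 230 to 251 reads per guide. With a single library per condition there is no replicate check on any difference, and no p-value is given. Intervals are 95% exact Poisson intervals for a level and exact Clopper-Pearson intervals for a fold, and they cover counting error only. PCR reads without molecular identifiers are not independent molecules. The log2 ratio of a guide was taken from the deposited normalized reads with a pseudocount of 5 added on both sides, which understates the change where a guide has few reads. Genes were scored by the median of their guides' log2 ratios. A gene was called when it had at least 2 guides and every one of them was past a log2 ratio of 1, a 2-fold change, in the same direction. Guides with under 10 normalized reads at day 0 were left out, and all 6 guides of FPGS and GGH passed. The guides of a gene share their target and their libraries and are not replicates. Another 991 non-targeting guides, which match no place in the genome, showed how far guides drifted without a knockout. Their log2 ratios had an SD of 0.64 in RTX over DMSO, where the highest was 3.06 and the lowest -4.14. The SD was 0.56 in RTX over day 0 and 0.53 in DMSO over day 0.

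FPGS guides were among the most abundant of the pool in RTX and were not in the other libraries. Guide HGLibA_17959 had 216 reads at the start, 165 after 14 days of DMSO and 1696 after 14 days of RTX. Guide HGLibA_17960 had 139, 48 and 8547 reads in the same order. Guide HGLibA_17961 had 264, 306 and 1491 reads. All 3 guides were therefore highest in RTX, and the guide with the fewest reads in DMSO had the most in RTX. In RPM, a guide's reads scaled to a library of 1000000 reads, HGLibA_17960 went from 8.40 (interval 7.06 to 9.92) at day 0 to 2.55 (1.88 to 3.38) with DMSO and 493 (482 to 503) in RTX. There it was the 3rd most abundant of all 62916 guides, after a rank of 46538 at day 0. HGLibA_17959 and HGLibA_17961 stood at 97.8 (93.2 to 103) and 86.0 (81.7 to 90.4) RPM in RTX, at ranks 37 and 58. In the DMSO library they stood at 8.77 (7.49 to 10.2) and 16.3 (14.5 to 18.2). Outside RTX the FPGS guides thus lay near the middle of the pool or below it, the median guide having 13.3 to 13.9 RPM. Summed, they made up 0.0677% of the RTX library, 0.00276% of the DMSO library and 0.00374% of the day 0 library. HGLibA_17960 alone made up 72.8% of the FPGS reads in RTX.

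**Figure D1:**
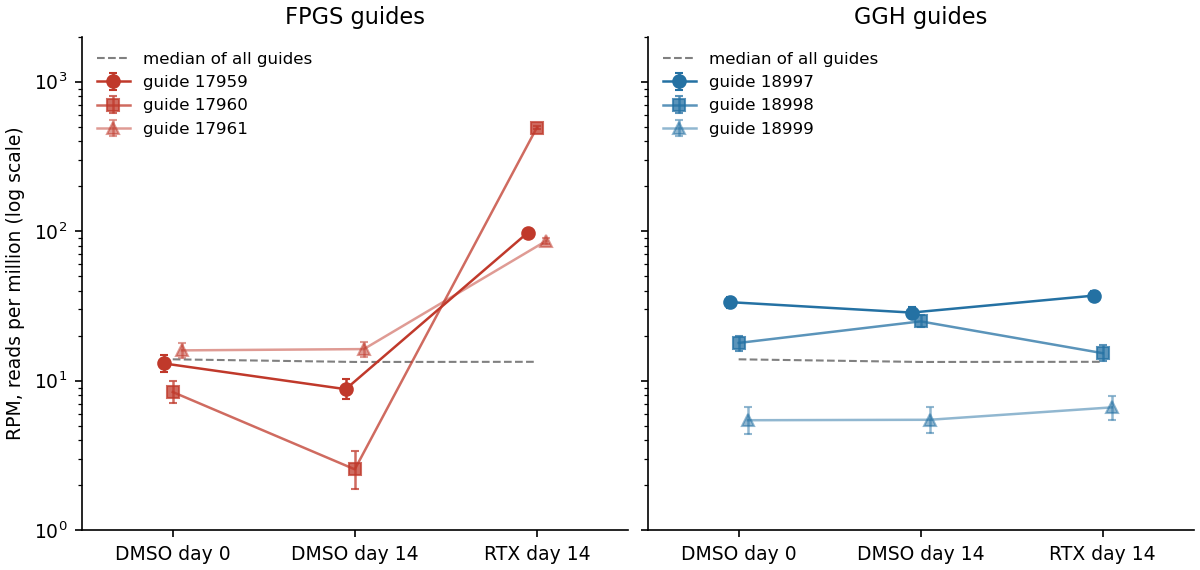
RPM (log scale) of each FPGS guide (left) and each GGH guide (right) in the 3 libraries, with 95% Poisson counting intervals and the median of all guides as a dashed line. The 3 FPGS guides lie between 2.55 and 16.3 RPM outside RTX and between 86.0 and 493 in RTX, while each GGH guide stays within a 2-fold change of its own day 0 level.

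RTX was set against DMSO at day 14, a ratio that is high when a guide gains reads in RTX and also when it loses reads in DMSO. The FPGS guides had log2 ratios of 2.40 (HGLibA_17961), 3.46 (HGLibA_17959) and 7.47 (HGLibA_17960). As plain folds without the pseudocount these were 5.37 (interval 4.74 to 6.09), 11.3 (9.65 to 13.4) and 196 (148 to 266). The gene was called higher, as were 85 of 20150 genes (0.422%), while 6 genes (0.0298%) were called lower. Summed over guides, the normalized FPGS reads were 24.9-fold higher in RTX. Among single guides, 7.89% were past a log2 ratio of 1 upward and 5.43% past -1 downward. By its median of 3.46 FPGS was the 4th highest gene. AP2S1, a subunit of the clathrin adaptor, was directly above with 4.10, but its weakest guide was at 0.12. ELP3, the catalytic subunit of Elongator, was directly below with 3.11 and guides from 2.64 to 3.12. By its weakest guide FPGS was 6th, and it was among the 8 genes whose guides were all at least 4-fold higher in RTX than in DMSO. Of the 991 non-targeting guides, 3 were at or above the weakest FPGS guide and 0 at or above the other two. The spread among the FPGS guides was wide, at 5.06 log2 units, and 99.9% of genes had a narrower one. The largest ratio rests in part on the 48 reads of HGLibA_17960 in DMSO, while the fold of 5.37 for HGLibA_17961 rests on 306 and 1491 reads.

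Setting RTX at day 14 against day 0 leaves the DMSO day 14 library out, although the RTX library is the same as above. Here the FPGS guides stood at log2 ratios of 2.47 (HGLibA_17961), 2.94 (HGLibA_17959) and 5.88 (HGLibA_17960). The plain folds were 5.62 (interval 4.93 to 6.43), 7.81 (6.78 to 9.04) and 61.2 (51.7 to 72.9). FPGS was called higher, as were 17 of 20150 genes (0.0844%), with 30 genes (0.149%) called lower. Of single guides, 3.18% were past a log2 ratio of 1 upward and 5.32% past -1 downward. By the median FPGS was 3rd and by the weakest guide 2nd. FPGS and SLC19A1 were the 2 genes with every guide at least 4-fold higher than at day 0. Of the non-targeting guides, 2 of 991 reached the weakest FPGS guide. The sum over the FPGS guides was 18.9-fold higher than at day 0.

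Without drug, the FPGS guides moved by different amounts. In DMSO at day 14 over day 0, HGLibA_17961 was at a log2 ratio of 0.05, HGLibA_17959 at -0.53 and HGLibA_17960 at -1.59. The plain fold of HGLibA_17960 was 0.309 (interval 0.218 to 0.432), and 7 of the 991 non-targeting guides were at or below its log2 ratio. The fold of HGLibA_17959 was 0.684 (0.555 to 0.842), and 79 non-targeting guides were at or below it. The fold of HGLibA_17961 was 1.04 (0.878 to 1.23), an interval that includes no change. The gene's median was -0.53, the 2182nd lowest of 20150 genes, and FPGS was not called. When ratios are centred on the non-targeting guides, that median is -0.73 and the FPGS guides range from -1.79 to -0.14. In that comparison 122 genes (0.605%) were called lower and 0 (0.0%) higher, and single guides were past the fold in 7.52% of cases downward and 2.32% upward. The sum over the FPGS guides was 0.751 of that at day 0.

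GGH guides stayed within a 2-fold change of their starting abundance in both day 14 libraries. Guide HGLibA_18997 started at 555 reads and had 537 with DMSO and 643 with RTX. Guide HGLibA_18998 had 296, 469 and 265 reads in the same order. Guide HGLibA_18999 had 90, 103 and 115 reads. The highest library was RTX for HGLibA_18997 and HGLibA_18999 and DMSO for HGLibA_18998, so the guides share no order of the conditions. In RPM, HGLibA_18999 lay at 5.44 (interval 4.37 to 6.69), 5.48 (4.47 to 6.64) and 6.63 (5.47 to 7.96), and its 3 intervals overlap. HGLibA_18998 lay at 17.9 (15.9 to 20.05), 24.9 (22.7 to 27.3) and 15.3 (13.5 to 17.2), with DMSO above both others beyond counting error. HGLibA_18997 lay at 33.5 (30.8 to 36.4), 28.6 (26.2 to 31.1) and 37.1 (34.3 to 40.1), where DMSO and RTX do not overlap. Summed over guides, GGH took 59.0 RPM in RTX, 59.0 in DMSO and 56.9 at day 0, and the normalized sums differed by folds of 1.02 to 1.08 in the 3 comparisons.

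In RTX over DMSO the GGH guides had log2 ratios of -0.67 (HGLibA_18998), 0.29 (HGLibA_18999) and 0.40 (HGLibA_18997), with a median of 0.29. The plain folds were 0.623 (interval 0.533 to 0.725), 1.23 (0.935 to 1.62) and 1.32 (1.17 to 1.48). The guides did not share a direction, and none of the 3 guides was past a 2-fold change in either direction. Without HGLibA_18997 the median is -0.19 and without HGLibA_18999 it is -0.14. By the median over all 3 guides GGH was 4929th from the top of 20150 genes, and 152 of 991 non-targeting guides were at or below its lowest guide and 165 at or above its highest. In RTX over day 0 the guides were at -0.16 (HGLibA_18998), 0.20 (HGLibA_18997) and 0.33 (HGLibA_18999). The median was 0.20 and the rank 5223. In DMSO over day 0 they were at -0.20 (HGLibA_18997), 0.03 (HGLibA_18999) and 0.50 (HGLibA_18998), with a median of 0.03 and a rank of 9219. That median is -0.16 when ratios are centred on the non-targeting guides. GGH was called in none of the 3 comparisons. In the authors' deposited tables the FDR of the GGH guides was 0.0851, 0.133 and 0.465 for RTX over DMSO, in the order HGLibA_18998, HGLibA_18997 and HGLibA_18999. The authors' deposited table put the 3 FPGS guides at the 3rd, 39th and 110th place by its score among guides higher in RTX than in DMSO. For FPGS the FDR in the authors' deposited table was 0, 0 and 2.5961e-102 in that comparison, and 0.0286, 0.217 and 0.834 in DMSO over day 0, each in the order HGLibA_17960, HGLibA_17959 and HGLibA_17961. At an FDR of 0.05 the authors' deposited table calls 13.6% of non-targeting guides in RTX over DMSO, so it was not used for calls here.

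**Figure D2:**
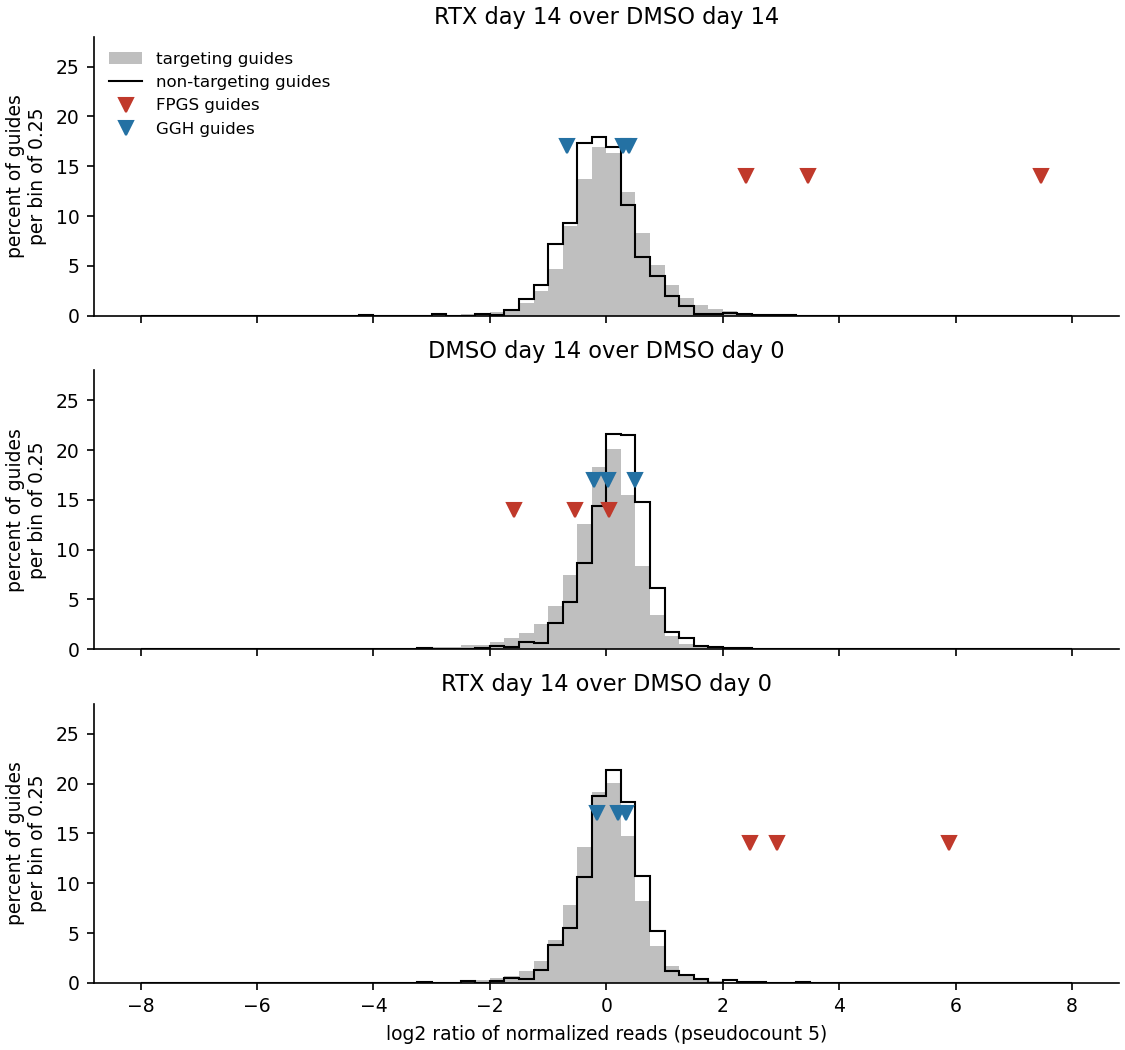
Share of targeting guides (grey) and non-targeting guides (black line) per bin of 0.25 in log2 ratio, for the 3 comparisons from top to bottom, with triangles at the FPGS and GGH guides (the height of a triangle has no meaning). FPGS guides sit at 2.40 to 7.47 in RTX over DMSO and at 2.47 to 5.88 in RTX over day 0, and GGH guides lie within the bulk in every panel.

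The difference between the FPGS and GGH medians was 3.17 log2 units in RTX over DMSO and 2.73 in RTX over day 0. In both, the guide ranges did not overlap. The lowest FPGS guide was 2.01 units above the highest GGH guide in RTX over DMSO and 2.14 above it in RTX over day 0. In DMSO over day 0 the difference was -0.57, and the guide ranges overlapped. These are differences between 3 guides and 3 guides in the same libraries, and no test over conditions is possible. A depletion of GGH guides by 2-fold was not seen in RTX, where the lower bounds of the counting intervals were folds of 0.533, 0.935 and 1.17 against DMSO. These bounds cover counting error only and cannot exclude such a depletion. The non-targeting guides had an SD of 0.64 log2 units in that comparison.

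Genes with a pattern most like each enzyme were found by the distance between pairs of medians, DMSO over day 0 and RTX over day 0, among 19522 other genes with at least 3 guides. The pairs cover 3 libraries and share the day 0 library. FPGS had few near genes, with 1 gene within a distance of 0.5. The nearest was AP2S1, at a distance of 0.37, with medians of -0.89 and 3.03. Its guides ranged from 0.62 to 3.22 in RTX over day 0, so 1 of the 3 was not past a 2-fold change there. PDXK, which phosphorylates vitamin B6, and HLCS, which attaches biotin to carboxylases, followed at distances of 0.83 and 0.98. Their RTX over day 0 medians were 2.42 and 2.19, with weakest guides at 1.37 and 0.76. Both lie on chromosome 21, where the 220 measured genes had a median of 0.69 in that comparison and the median over all genes was close to 0. The part of the chromosome in their values was not tested. ATXN2L, an RNA-binding protein, was at a distance of 1.05, and CCDC114, a part of ciliary dynein docking, at 1.15. The weakest guide in RTX over day 0 was at 0.75 for ATXN2L and at 0.10 for CCDC114. GGH by contrast lay in a dense part of the distribution, with 763 genes within a distance of 0.1 and 11699 within 0.5. The nearest were hsa-mir-5739, SPATA31C2, H2AFJ, hsa-mir-181a-1 and the olfactory receptor OR2T11, each at a distance of 0.01.

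**Figure D3:**
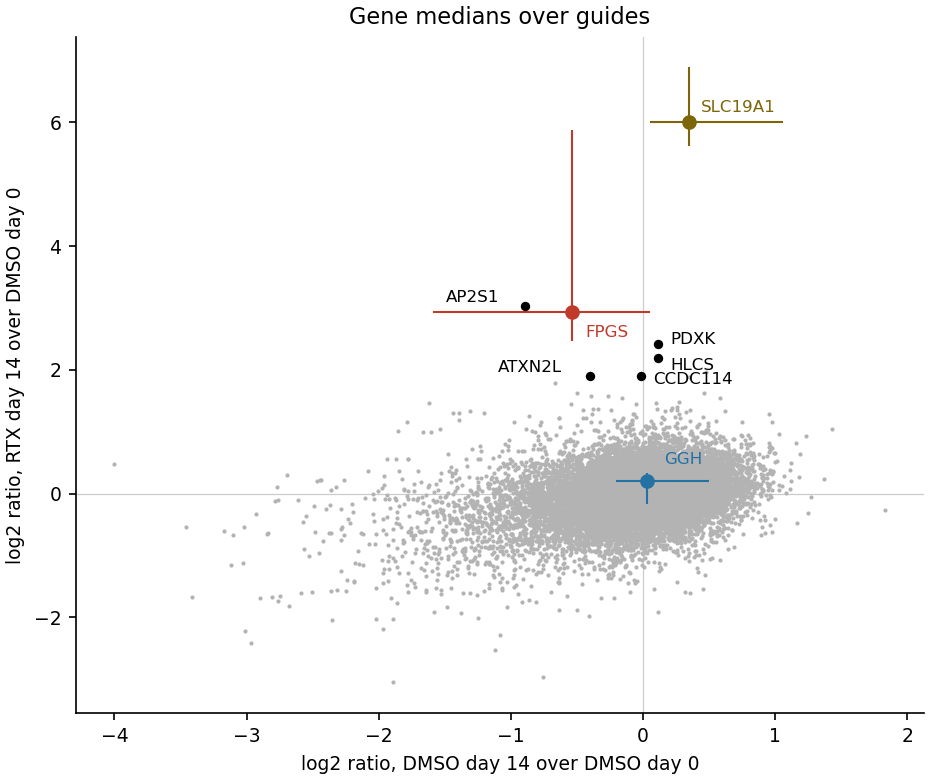
Median log2 ratio over guides of each gene in DMSO over day 0 (x axis) and RTX over day 0 (y axis), which share the day 0 library. Lines through FPGS, GGH and SLC19A1 span their guides. FPGS lies at -0.53 and 2.94, far above the cloud, near AP2S1, while GGH lies inside the cloud at 0.03 and 0.20.

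The other genes of folate and antifolate handling were grouped by role. The 42 genes described here had at least 2 guides past the filter, and FOLH1B and MTHFS were not measured. In RTX over DMSO, 2 of the 42 were called higher and 0 lower, beside 0.422% and 0.0298% of all genes. Their median was -0.14, and the median over all genes was close to 0. In RTX over day 0, 1 was called higher and 0 lower, beside 0.0844% and 0.149% of all genes, with a median of -0.02. In DMSO over day 0, 0 were called in either direction, beside 0.0% of all genes higher and 0.605% lower. At these shares a count of 0 in a short list is also what most genes show, and nothing is read from it below. FPGS stood above all of these genes except SLC19A1 in both comparisons that involve RTX. Against GGH, 9 of the 42 had a higher median in RTX over DMSO and 11 in RTX over day 0.

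Of the 6 uptake genes, SLC19A1, the reduced folate carrier, was the one that was called. Its reads in RTX were 2578, 10090 and 43111, against 35, 199 and 357 at day 0 in the same guide order. Its median of 6.01 in RTX over day 0 was above the highest FPGS guide at 5.88, while its lowest guide, at 5.62, was not. That median is the value of the guide with 35 reads at day 0. With a pseudocount of 20 the median was 5.56 and the highest FPGS guide was at 5.75. The guide ranges in RTX over DMSO overlapped, with 4.95 to 6.82 for SLC19A1 and 2.40 to 7.47 for FPGS. In DMSO over day 0 SLC19A1 was at 0.35, with its lowest guide at 0.05, where FPGS was at -0.53. SLC19A1 also lies on chromosome 21, and its value was far above that chromosome's median of 0.69. SLC46A1, the proton-coupled folate transporter, stood at -0.52 in RTX over DMSO, with guides from -2.10 to 0.34. FOLR1, a folate receptor, stood at -0.93 with guides from -1.71 to 1.83. FOLH1, a cell-surface enzyme that like GGH removes gamma-linked glutamates, stood at 0.12 in RTX over DMSO with guides from -0.89 to 0.79, and at 0.14 in RTX over day 0 with guides from -0.76 to 0.99. The 8 efflux pumps had medians from -0.74 to 0.06 in RTX over DMSO, with 0 called, where 0.422% of all genes were called higher and 0.0298% lower.

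Among 3 enzymes that antifolates can block, GART was called in RTX over DMSO and in no other comparison, and TYMS and ATIC were called in none. TYMS, thymidylate synthase, stood at -0.61 in RTX over DMSO, -1.28 in DMSO over day 0 and -1.29 in RTX over day 0. TYMS was not called lower, since 1 of its guides was above -1 both in DMSO over day 0 (0.22) and in RTX over day 0 (-0.65). GART, which carries out a folate-dependent step of purine synthesis, was called higher in RTX over DMSO with a median of 1.27 and guides from 1.27 to 2.76. In DMSO over day 0 its median was -1.66, and in RTX over day 0 it was 1.00 with guides from -0.38 to 1.12. GART lies on chromosome 21, whose median in RTX over DMSO was 0.73. The part of the chromosome in the GART value was not tested. ATIC stood at -0.16 in RTX over DMSO. With a threshold of 4-fold GART was not called. Of 17 one-carbon enzymes, 0 were called in RTX over DMSO (all genes 0.422% higher and 0.0298% lower), with medians from -1.22 to 0.56 in RTX over DMSO. Of the 7 genes of thymidine salvage and dUTP removal, 0 were called there, beside the same shares of all genes, with medians from -0.53 to 0.77 in RTX over DMSO.

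**Figure D4:**
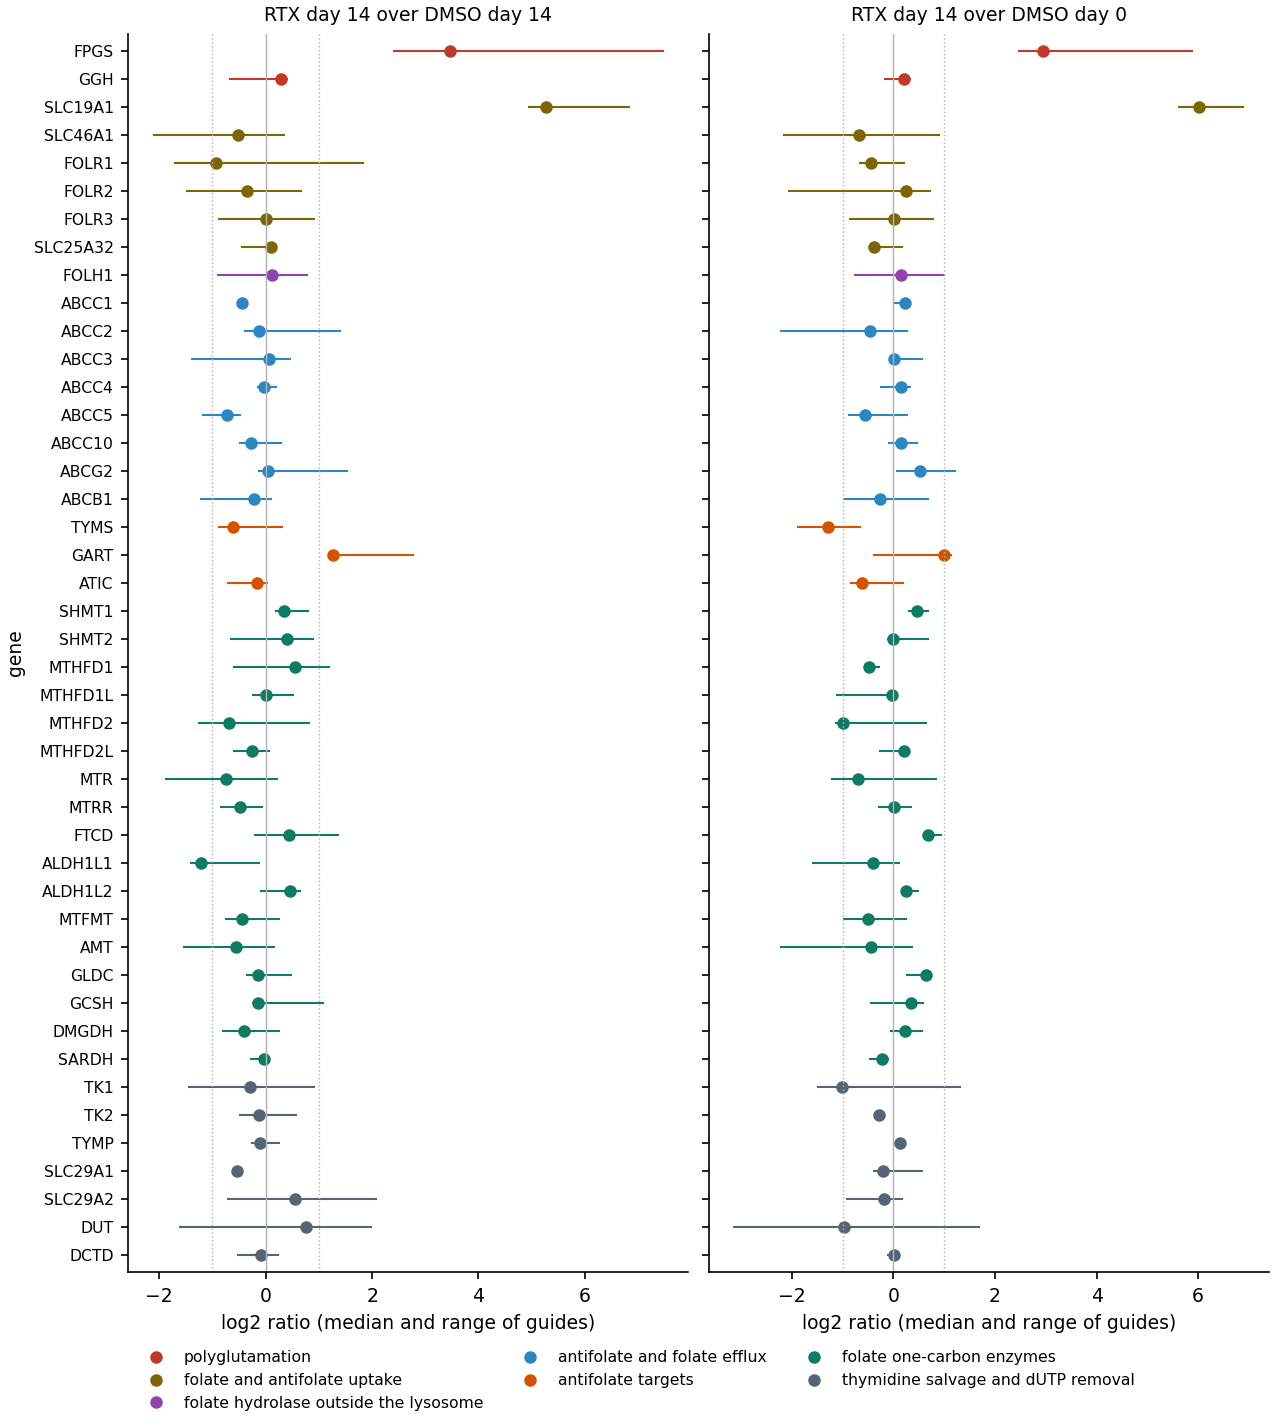
Median (dot) and guide range (line) of the log2 ratio for FPGS, GGH and 42 other genes of folate and antifolate handling, coloured by role, in RTX over DMSO (left) and RTX over day 0 (right). Dotted lines mark -1 and 1. FPGS at 3.46 and 2.94 and SLC19A1 at 5.27 and 6.01 stand apart from the rest, and GGH at 0.29 and 0.20 does not.

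The genes beside FPGS and GGH on their chromosomes were measured as well. The order came from the RefSeq gene table of GRCh38.p14, and no coordinates are given because the submitters' processing notes name the build hg19. FPGS lies on chromosome 9. Its 20 measured neighbours, 10 on each side, had medians from -0.74 to 0.64 in RTX over DMSO and a median over them of -0.07, with 0 called in either direction beside 0.422% of all genes higher and 0.0298% lower. In RTX over day 0 they lay between -0.69 and 0.60, with a median of -0.21 and 0 called beside 0.0844% and 0.149% of all genes. CDK9 and ENG, on either side of FPGS, stood at -0.30 and 0.03 in RTX over DMSO, where FPGS stood at 3.46. In DMSO over day 0 the neighbours had a median of -0.14, with RPL12, a ribosomal protein gene, lowest at -2.40. GGH lies on chromosome 8, and its 20 neighbours had medians of 0.14 in RTX over DMSO, 0.02 in DMSO over day 0 and 0.17 in RTX over day 0. These were near GGH's own 0.29, 0.03 and 0.20, and 0 of them were called in any comparison. Over all genes the shares called higher were 0.422%, 0.0% and 0.0844% in that order of comparisons, and the shares called lower 0.0298%, 0.605% and 0.149%, so that 0 of 20 sets these genes apart from no others.

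**Figure D5:**
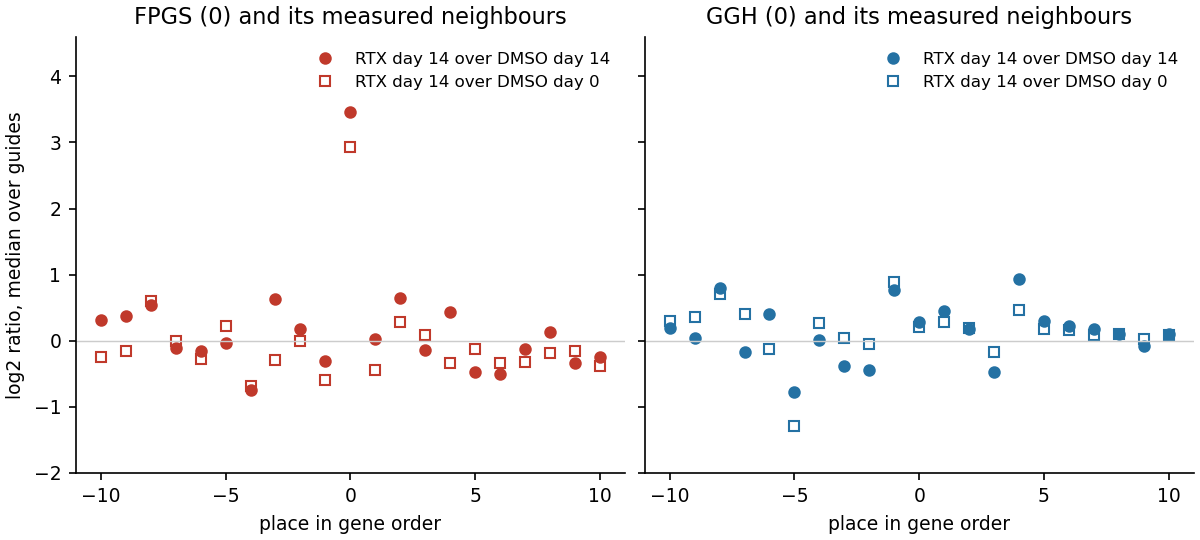
Median log2 ratio over guides of FPGS (left) and GGH (right), at place 0, and of the 10 measured genes on each side in gene order, for RTX over DMSO (filled circles) and RTX over day 0 (open squares). FPGS stands at 3.46 and 2.94 among neighbours that lie between -0.74 and 0.64, while GGH at 0.29 and 0.20 stands among neighbours between -1.29 and 0.94.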

How the data were processed

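The guide libraries of 3 NUGC3 conditions were compared, 1 library each. The authors deposited 3 guide tables made with MAGeCK 0.5.7, with build hg19, per the submitters' processing notes. The tool settings for matching reads were not given in the sources used here. The deposited values, per the file headers, are a normalized signal of guide abundance. Dividing by the value of 1 read gave whole reads, within 0.1, for at least 99.9984% of values in the DMSO over day 0 and RTX over DMSO tables, which supplied the reads of all 3 libraries. The RTX over day 0 table was not used for reads, since its value of 1 read is close to 1. The authors' deposited score and FDR (q-value) per guide were only described.

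Log2 ratios used the deposited values with a pseudocount of 5, over 62610 of 62916 guides, and 20150 genes with at least 2 guides. The gene scores left out 23 date-like names with 72 guides, while guide ranks and shares did not leave them out. Genes were called by fold, with no test across genes. The members, gene lists and rules were chosen with earlier results of these data known, and some list members are not reported here. Named were FPGS, GGH, list members that were called, TYMS, the 5 genes nearest each member and the genes ranked beside FPGS, and the other genes given were chosen after their values were seen. Alternatives covered pseudocount, filter, scaling, fold, mean over guides, each guide left out, and edgeR 4.0.16 (exact test on whole reads, 1 dispersion from the non-targeting guides, Benjamini-Hochberg adjustment over all guides), tested on simulated data. The simulation gave all guides of a gene the same change, which the FPGS guides did not have, and no result here rests on it. Gene order used 19046 genes placed in RefSeq GRCh38.p14, 1990 of them by a synonym. Guide sequences were not used here. Analyses ran in Python 3.11.15 and R 4.3.3.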

Additional observations from a re-analysis of the deposited data

How the results depend on the processing

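FPGS was called higher in RTX over DMSO and in RTX over day 0 under all 10 settings of pseudocount, filter, scaling, averaging and fold that were run, with ranks by score between 2 and 5 and between 2 and 3. GGH was called under none of them. The 10 settings include the main one. The mean over guides and the filters could not change the calls of either gene, because calls rest on single guides that pass either filter. The looser fold could not remove the FPGS call, nor could the stricter fold add a GGH call. The mean over guides in place of the median gave FPGS 4.44 in RTX over DMSO and 3.76 in RTX over day 0, and differences from GGH of 4.44 and 3.64. Leaving out each guide in turn, FPGS ranged from 2.93 to 5.46 in RTX over DMSO, from 2.70 to 4.41 in RTX over day 0 and from -1.06 to -0.24 in DMSO over day 0. GGH then ranged from -0.19 to 0.34, from 0.0195 to 0.27 and from -0.09 to 0.27, so its sign in RTX over DMSO and in DMSO over day 0 depends on which guides are used. Centring on the non-targeting guides shifted all genes by 0.10 in RTX over DMSO, -0.20 in DMSO over day 0 and -0.11 in RTX over day 0. It gave 114 genes higher and 4 lower in RTX over DMSO, in place of 85 and 6. In DMSO over day 0 it gave 200 genes lower in place of 122. In RTX over day 0 there were 11 higher and 36 lower in place of 17 and 30. With a log2 fold of 0.5, 404 genes were higher and 194 lower in RTX over DMSO, 85 and 461 in DMSO over day 0, and 179 and 221 in RTX over day 0. With a log2 fold of 2 the counts were 8 and 0, 0 and 13, and 2 and 0, because fewer guides pass. With a pseudocount of 20, 18 genes were lower in RTX over day 0. Either no filter or a filter of 50 reads gave 1 gene higher in DMSO over day 0.

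The edgeR exact test on the reads of 2 libraries, which compares those libraries and not the conditions, called 583 guides higher and 246 lower in RTX over DMSO, 82 and 1302 in DMSO over day 0, and 121 and 416 in RTX over day 0. All 3 FPGS guides were called in both comparisons with RTX and none in DMSO over day 0, and no GGH guide was called in any. No paired analysis was possible because each condition had 1 library. At 48 reads, HGLibA_17960 in DMSO limits the precision of the highest FPGS ratio.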
